A study of Rattus norvegicus with 18 samples.

Results

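The CC chemokines are small secreted proteins that draw leukocytes along a gradient, and 10 of their ligand genes were followed here: Ccl2, Ccl3, Ccl4, Ccl5, Ccl6, Ccl7, Ccl17, Ccl19, Ccl20 and Ccl22. The genes were taken by symbol, and all 10 were present among the 17307 symbols of the astrocyte tables and the 17327 symbols of the microglia tables. RNA was measured in 18 libraries from primary glia of wild-type Sprague–Dawley rat pups at P2, with 3 libraries in each of 6 groups. Astrocytes and microglia came from the same kind of mixed cortical culture, the microglia being shaken off and the attached layer kept as astrocytes. Both were placed in serum-free medium for 3 h and were then left untreated or given 25 µM of Aβ42 or Aβ40 fibrils for 24 h. Aβ42 and Aβ40 are the longer and the shorter of the main amyloid-β peptides found in the Alzheimer brain. Nothing in the labels says whether replicates were separate cultures or litters, so p-values measure the spread between these libraries, which may be technical.

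CC chemokines signal through receptors of the CCR family on the responding cell. Ccl2 and Ccl7 attract monocytes through Ccr2. Ccl3, Ccl4 and Ccl5 attract macrophages and T cells, and Ccl3 and Ccl5 bind Ccr1, the receptor of the rodent ligand Ccl6. Ccl20 is the ligand of Ccr6, Ccl19 of Ccr7, and Ccl17 and Ccl22 share Ccr4. Many of these genes are induced by NF-κB and interferon signalling. The genes also sit in groups: in the RefSeq annotation of GRCr8, Ccl7 lies next to Ccl2, Ccl3 lies between Ccl6 and Ccl4, Ccl9 separates Ccl5 from Ccl6, and only Cx3cl1 separates Ccl17 from Ccl22.

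RefSeq promoter windows were matched for 6 of the 10 genes (Ccl6, Ccl7, Ccl17, Ccl19, Ccl20 and Ccl22), and the 250 bases before the start of each were searched on both strands. The 4 shown are those of a gene induced in both cultures with a κB match, a gene read mainly in fibril-treated astrocytes, a monocyte ligand, and the single gene that moved in opposite directions in the 2 cultures. They are written 5′ to 3′ on the strand of the gene (GRCr8), with matches in capitals. The Ccl20 window (chr9:91836909-91837158, plus strand) holds a match to the NF-κB consensus on the opposite strand, 89 to 80 bases before the start. The Ccl19 window (chr5:61761165-61761414, minus strand) holds the interferon response element GAAANNGAAA, 51 to 42 bases before the start. The Ccl7 window (chr10:67513845-67514094, plus strand) holds an AP-1 match (TGANTCA) and a TATA box (TATAAA), and the Ccl6 window (chr10:68883367-68883616, minus strand) holds a TATA box alone.
Ccl20: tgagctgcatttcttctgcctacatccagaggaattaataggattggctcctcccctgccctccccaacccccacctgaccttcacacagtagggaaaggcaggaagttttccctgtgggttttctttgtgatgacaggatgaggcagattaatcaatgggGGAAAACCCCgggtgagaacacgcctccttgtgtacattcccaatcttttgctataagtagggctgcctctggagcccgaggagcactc
Ccl19: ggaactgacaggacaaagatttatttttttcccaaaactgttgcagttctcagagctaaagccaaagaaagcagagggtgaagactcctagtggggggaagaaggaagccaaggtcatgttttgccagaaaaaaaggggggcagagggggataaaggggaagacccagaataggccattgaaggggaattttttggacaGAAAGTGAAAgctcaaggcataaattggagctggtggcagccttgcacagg
Ccl7: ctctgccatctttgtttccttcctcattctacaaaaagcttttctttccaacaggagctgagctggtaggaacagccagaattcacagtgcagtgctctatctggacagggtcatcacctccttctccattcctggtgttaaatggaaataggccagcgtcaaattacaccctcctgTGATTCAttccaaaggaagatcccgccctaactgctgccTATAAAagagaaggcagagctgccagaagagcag
Ccl6: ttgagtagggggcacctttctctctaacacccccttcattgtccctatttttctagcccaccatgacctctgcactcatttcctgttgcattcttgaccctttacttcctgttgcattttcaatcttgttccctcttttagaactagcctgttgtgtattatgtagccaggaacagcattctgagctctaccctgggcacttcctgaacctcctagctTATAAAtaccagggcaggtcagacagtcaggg
Of 33469 RefSeq promoter windows of this length, 3.54% held the NF-κB consensus, 3.41% the interferon response element, 6.34% the AP-1 site and 12.9% the TATA box. The gamma-activated site TTCNNNGAA stood in 7.67% of windows and, of the 6 genes, in that of Ccl17. None of these 5 motifs was found in the Ccl22 window. A match describes letters and does not show that a factor binds there.

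Reads on genes ranged from 3674043 to 19013919 per astrocyte library and from 2271834 to 22274367 per microglia library. Levels are given as CPM, reads scaled to a common library size on genes with TMM correction for composition, within each cell type unless stated otherwise. A gene with 3 counts lay between 0.130 and 1.38 CPM, depending on the library. Scaled over all 18 libraries, the summed level of 10 astrocyte markers was 5555 to 11038 CPM in astrocyte libraries against 209 to 307 CPM in microglia libraries. That of 12 microglia markers was 2624 to 11024 CPM in microglia libraries against 133 to 514 CPM in astrocyte libraries. Oligodendrocyte lineage markers summed to 1734 to 4343 CPM over all libraries, so neither culture was free of that lineage. Microglia Aβ42 replicate 1 stood apart from its group: across genes its log2 CPM correlated at 0.973 to 0.981 with the Aβ40 libraries and at 0.961 with both other Aβ42 libraries, which correlated with each other at 0.996. With 2613723 reads it was also far shallower than the other Aβ42 libraries, so results that rest on it are given with and without it. Astrocyte control replicate 2 correlated at 0.946 to 0.947 with the other controls, which correlated at 0.983, and without it no chemokine call against control changed.

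Either fibril raised most of the 10 ligands followed here in both cultures. These were chosen with earlier results of these data known, and further CC ligands are given below. In astrocytes, 8 of the 10 genes passed the filter on low counts (Ccl17 and Ccl22 did not), and with Aβ42 7 were higher and 1, Ccl6, was lower than in untreated cells at an adjusted p under 0.05 (edgeR quasi-likelihood test with Benjamini-Hochberg adjustment). Among all 11690 genes tested, 16.5% were called higher and 20.4% lower. With Aβ40 the count was again 7 higher and 1 lower, against 14.9% and 18.4% of all genes. All 7 genes that rose did so at least 5-fold with each fibril, a size reached by 3.03% of all genes with Aβ42 and 2.82% with Aβ40. In microglia, 8 of the 10 genes passed the filter (Ccl17 and Ccl19 did not) and all 8 were higher with each fibril, against 27.1% of 10837 genes with Aβ42 and 19.6% with Aβ40. Of these, 7 rose at least 5-fold (3.69% and 3.36% of all genes), the exception being Ccl6. Some members passed the filter only through treated libraries, among them Ccl19 in astrocytes (no untreated read) and Ccl22 in microglia (0, 1 and 3 untreated reads). For such members a call of higher was the likely outcome, so they add little to these counts. In each of the calls the 3 treated libraries lay on the same side of the 3 untreated ones, which in the higher direction held for 22.7% and 21.9% of all genes in astrocytes and 25.8% and 29.0% in microglia (Aβ42 and Aβ40). The median log2 fold change of the tested members was 4.66 and 4.35 in astrocytes and 4.54 and 4.63 in microglia (Aβ42 and Aβ40), while that of all genes was within 0.01 of 0 in each comparison. TMM scaling itself holds the median of all genes near 0, so that value is no independent result. The 2 fibrils share their control libraries.

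**Figure D1:**
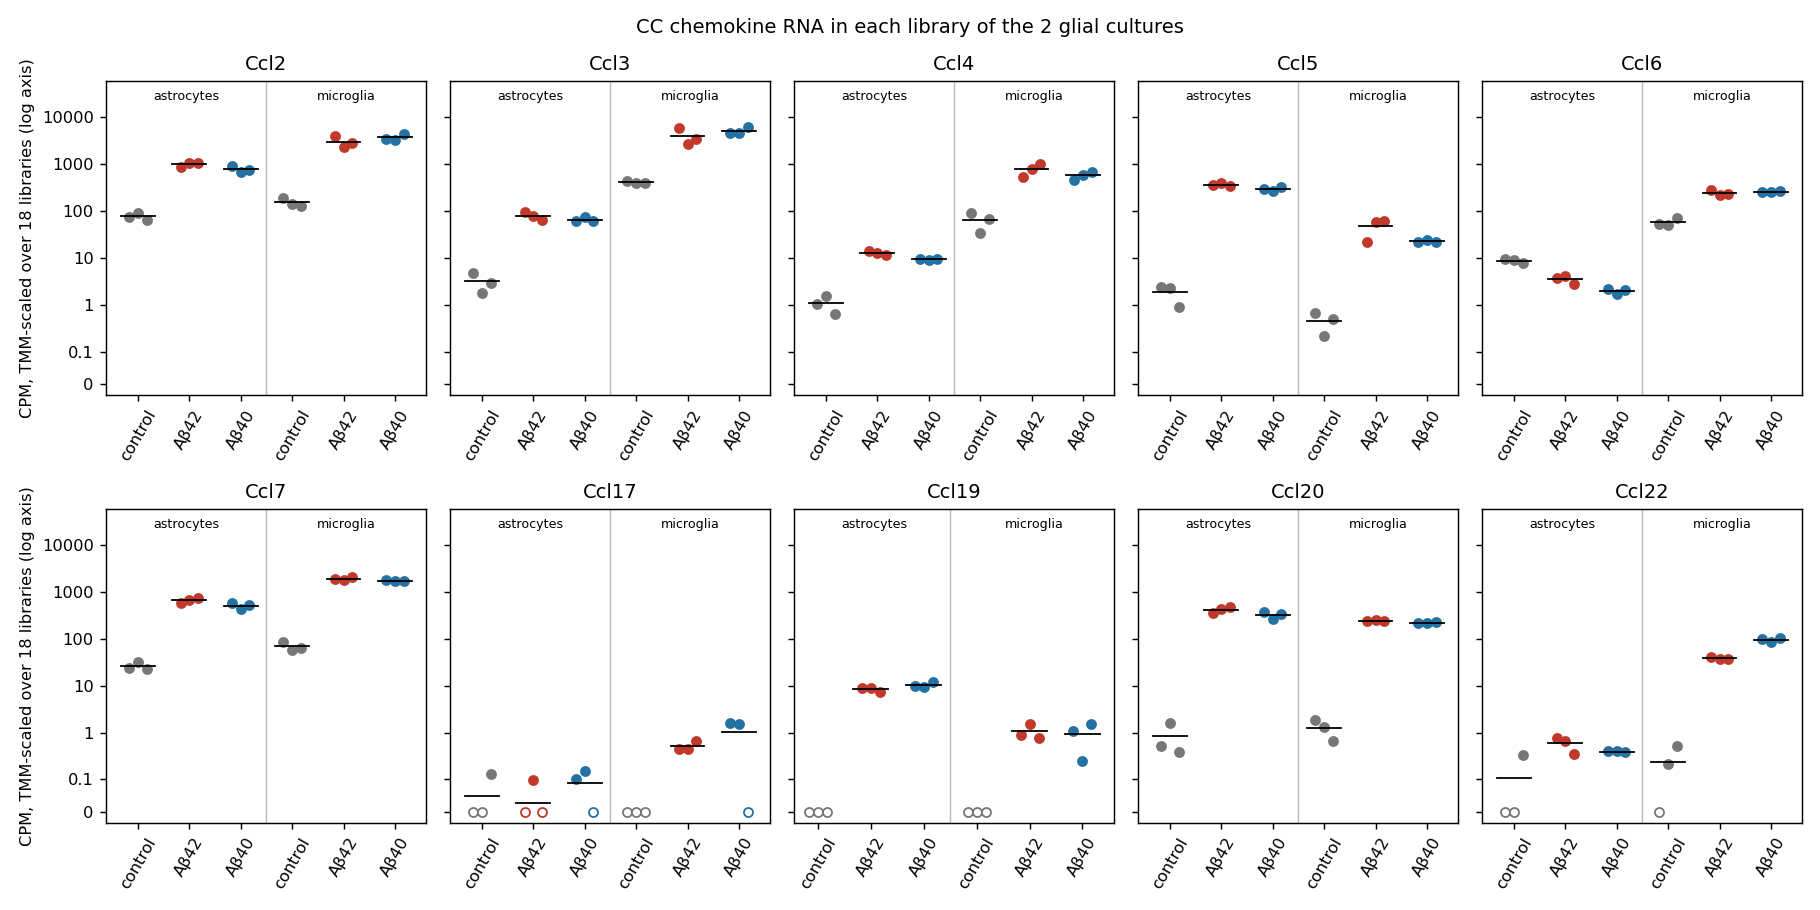
Level of each of the 10 CC chemokines in each of the 18 libraries (points, CPM scaled over all libraries, log axis), with the group mean as a line and libraries without a read as open points at 0. Ccl6 is the one tested gene whose treated astrocyte points fall below the controls, and Ccl19 has no read in any of the 6 untreated libraries.

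Ccl2, the principal monocyte attractant, took the most reads of the family in untreated astrocytes, with 64.1% to 65.7% of the chemokine reads. Its level was 79.6, 98.6 and 69.9 CPM in the 3 untreated astrocyte libraries, 916, 1110.5 and 1110.3 CPM with Aβ42, and 942, 743 and 821 CPM with Aβ40. The treated libraries all lay far above the untreated ones, and the log2 fold change was 3.67 ± 0.17 (SE) with Aβ42 and 3.34 ± 0.17 with Aβ40 (adjusted p = 5.55e-08 and 1.14e-07, edgeR). In microglia Ccl2 stood at 172, 129 and 119 CPM without fibrils, at 3734, 2069 and 2441 CPM with Aβ42, and at 3172, 2983 and 3972 CPM with Aβ40. The highest of the Aβ42 values was that of replicate 1, which lay inside the Aβ40 range. The log2 fold change was 4.29 ± 0.24 with Aβ42 (4.0 without replicate 1) and 4.59 ± 0.24 with Aβ40 (adjusted p = 2.79e-08 and 2.20e-08, edgeR).

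Ccl7, its neighbour and a second monocyte attractant, moved with it. Untreated astrocytes held 25.05, 34.0 and 24.8 CPM, which became 623, 709 and 761 CPM with Aβ42 and 596, 474 and 556 CPM with Aβ40. Untreated microglia held 76.5, 52.7 and 56.4 CPM, which became 1696, 1573 and 1858 CPM with Aβ42 and 1609, 1531 and 1579 CPM with Aβ40. No treated library came near an untreated one, and the log2 fold changes were 4.65 ± 0.18 and 4.29 ± 0.17 in astrocytes and 4.78 ± 0.16 and 4.66 ± 0.15 in microglia (Aβ42 and Aβ40; adjusted p from edgeR at most 2.37e-08). In astrocytes the rise was steeper for Ccl7 than for Ccl2: reads on Ccl2 per read on Ccl7 went from 2.81 to 3.18 in untreated libraries to 1.46 to 1.57 with Aβ42 and 1.48 to 1.58 with Aβ40. In microglia the ratio stayed at 1.95 to 2.52 with Aβ40, beside 2.10 to 2.45 untreated. With Aβ42 it was 2.20 in replicate 1 and 1.32 and 1.31 in the other 2 libraries. No test was run on these ratios.

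Ccl3 and Ccl4, neighbouring genes whose products attract macrophages and lymphocytes, carried the largest contrast between the untreated cultures. In microglia Ccl3 alone took 51.3% to 58.4% of the chemokine reads before treatment. It stood at 404, 364 and 353 CPM untreated, 5506, 2439 and 3008 CPM with Aβ42, and 4255, 4261 and 5739 CPM with Aβ40. Replicate 1 was again the highest of the Aβ42 libraries. In astrocytes the same gene had 5.01, 1.91 and 3.24 CPM untreated, 99.96, 84.9 and 67.3 CPM with Aβ42, and 65.5, 80.2 and 64.9 CPM with Aβ40. So a gene with between 8 and 46 reads per untreated astrocyte library reached 560 to 1499 reads in treated ones. The log2 fold changes were 4.67 ± 0.27 and 4.40 ± 0.27 in astrocytes and 3.29 ± 0.27 and 3.67 ± 0.27 in microglia (Aβ42 and Aβ40; adjusted p from edgeR at most 7.66e-07). Without replicate 1 the Aβ42 value in microglia was 2.86.

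Ccl4 was at 1.11, 1.68 and 0.703 CPM in untreated astrocytes, between 12.3 and 15.1 CPM with Aβ42, and between 9.79 and 10.1 CPM with Aβ40. In microglia its untreated libraries spread from 29.9 to 84.2 CPM, a wider range than that of Ccl3, and the treated ones lay at 481, 716 and 885 CPM with Aβ42 and 422, 540 and 629 CPM with Aβ40. All treated libraries were above all untreated ones. The log2 fold changes were 3.76 ± 0.27 and 3.30 ± 0.27 in astrocytes and 3.55 ± 0.33 and 3.15 ± 0.33 in microglia (Aβ42 and Aβ40; adjusted p from edgeR at most 8.61e-06). Replicate 1 of the Aβ42 microglia, the highest library of its group for Ccl3, was the lowest for Ccl4, and its 11.4 reads on Ccl3 per read on Ccl4 compare with 3.41 and 3.40 in the other 2 Aβ42 libraries and 7.89 to 10.1 in the Aβ40 libraries.

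Ccl5, which draws T cells and monocytes, was close to silent in both cultures at rest. The untreated astrocyte libraries held 9, 10 and 14 reads, or 2.505, 2.39 and 0.985 CPM. With Aβ42 the level was 378, 429 and 361 CPM and with Aβ40 303, 287 and 352 CPM. The log2 fold change was 7.91 ± 0.28 with Aβ42 and 7.60 ± 0.28 with Aβ40 (adjusted p = 8.78e-09 and 1.09e-08, edgeR). Microglia rose from 5, 1 and 3 reads to 20.0, 51.0 and 54.9 CPM with Aβ42 and to 19.5, 21.5 and 20.2 CPM with Aβ40. The low Aβ42 value was that of replicate 1, in the Aβ40 range. The microglia log2 fold changes were 6.6 ± 0.46 with Aβ42 (6.85 without replicate 1) and 5.48 ± 0.52 with Aβ40 (adjusted p = 1.99e-07 and 3.86e-06, edgeR).

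Ccl6, a rodent ligand of Ccr1, was the one member that moved in opposite directions. Untreated astrocytes held 10.02, 9.81 and 8.44 CPM, and this fell to 4.05, 4.45 and 2.88 CPM with Aβ42 and to 2.29, 1.82 and 2.19 CPM with Aβ40. The 3 groups did not overlap, and the log2 fold change was -1.27 ± 0.21 with Aβ42 and -2.16 ± 0.21 with Aβ40 (adjusted p = 5.87e-04 and 1.83e-05, edgeR). Microglia held 47.8, 45.0 and 65.7 CPM untreated, 257, 198 and 206 CPM with Aβ42, and 232, 229 and 248 CPM with Aβ40. This was a rise of 2.05 ± 0.15 with Aβ42 and 2.16 ± 0.16 with Aβ40 on the log2 scale (adjusted p = 3.85e-07 and 3.20e-07, edgeR), the smallest of the 8 in microglia. Its neighbour Ccl3 rose in astrocytes while Ccl6 fell. The astrocyte cultures also lost microglia markers: 10 of 12 were lower with Aβ42 and 11 of 12 with Aβ40, beside 20.4% and 18.4% of all genes. The summed level of these markers went from 418 to 514 CPM to 158 to 166 CPM and 133 to 146 CPM. In the microglia cultures, where Ccl6 rose, the same markers were lower as often (10 of 12 and 11 of 12), and their sum went from 9672 to 11024 CPM to 2624 to 3783 CPM and 3355 to 3987 CPM. In bulk RNA, fewer cells of a type and less RNA per cell cannot be told apart, and the part of microglia in the fall of Ccl6 was not tested.

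Ccl20, the single ligand of Ccr6, had the largest fold change among the members whose controls held reads in every library. Untreated astrocytes had 2, 7 and 6 reads (0.557, 1.68 and 0.422 CPM), and treated ones 376, 452 and 505 CPM with Aβ42 and 399, 278 and 352 CPM with Aβ40. Untreated microglia had 14, 6 and 4 reads (1.65, 1.16 and 0.610 CPM), and treated ones 226, 218 and 215 CPM with Aβ42 and 192, 196 and 207 CPM with Aβ40. The treated microglia libraries, replicate 1 included, lay between 192 and 226 CPM, far above the untreated ones. The log2 fold changes were 9.27 ± 0.35 and 8.89 ± 0.35 in astrocytes and 7.52 ± 0.19 and 7.37 ± 0.19 in microglia (Aβ42 and Aβ40; adjusted p from edgeR at most 1.84e-08). In astrocytes Ccl20 went from 0.387% to 1.12% of the chemokine reads in untreated libraries to 15.5% to 17.8% with Aβ42 and 14.8% to 17.2% with Aβ40.

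Ccl19, which guides dendritic cells and T cells through Ccr7, had no read in any of the 6 untreated libraries. Astrocytes treated with Aβ42 held 139, 95 and 64 reads (9.54, 9.60 and 7.69 CPM) and those treated with Aβ40 99, 191 and 194 reads (10.3, 10.2 and 12.9 CPM). Set against the level of 3 counts in each untreated library, this was at least 15.2-fold higher with Aβ42 and at least 18.9-fold higher with Aβ40 (adjusted p = 2.42e-06 and 1.71e-06, edgeR). Microglia gave 2, 31 and 12 reads with Aβ42 and 4, 1 and 3 reads with Aβ40, and the gene did not pass the filter. With Aβ42 the mean was at least 2.03-fold above the level of 3 counts in each untreated library, and with Aβ40, where 2 of 3 libraries held no more than 3 reads, no fold is given.

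Ccl22 and Ccl17, the ligands of Ccr4 made by dendritic cells and macrophages, were read almost only in microglia. Ccl22 had 0, 1 and 3 reads in untreated microglia and 96, 743 and 569 reads with Aβ42, or 38.4, 32.2 and 32.4 CPM. With Aβ40 it had 364, 351 and 204 reads, or 87.8, 78.5 and 93.8 CPM. The 3 groups did not overlap, and here replicate 1 of the Aβ42 group lay with its own group. Since the untreated libraries held 4 reads in all, the ratio of summed counts is the safer measure: 165 (95% counting interval 64.3 to 607) with Aβ42 and 431 (168 to 1584) with Aβ40 (adjusted p = 5.35e-09 and 1.40e-09, edgeR). These intervals cover counting error only. In astrocytes Ccl22 had 0, 0 and 5 reads untreated, 12, 7 and 3 with Aβ42, and 4, 8 and 6 with Aβ40, and it did not pass the filter. Ccl17 had no read in untreated microglia, 1, 9 and 10 reads with Aβ42 and 6, 6 and 0 with Aβ40, while no astrocyte library held more than 3. Dendritic cell markers, of which 6 were listed in the microglia tables, summed to 7.42 to 12.8 CPM in every microglia group, and lymphocyte markers to at most 1.01 CPM. Of the dendritic cell markers 2 were tested, and with each fibril 1 rose, Batf3 (0.603 CPM untreated, 4.47 and 3.71 CPM with Aβ42 and Aβ40), and 1 fell, Zbtb46 (9.37, 5.22 and 3.76 CPM), which made up most of the untreated sum. Their part in the rise of Ccl22 was not tested.

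**Figure D2:**
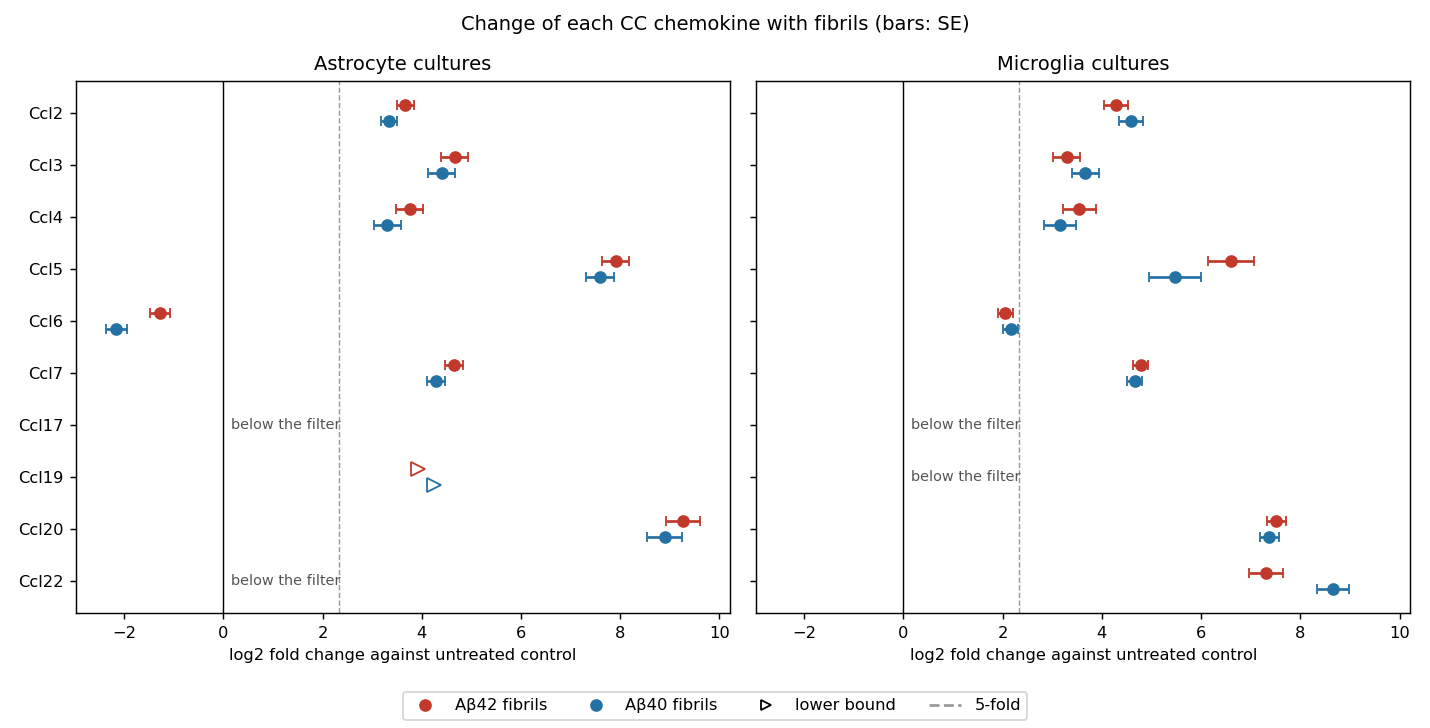
Log2 fold change of each CC chemokine against untreated control in astrocyte and microglia cultures (points, bars are SE, n = 3 libraries per group). The astrocyte values of Ccl19 are lower bounds because no untreated library held a read, and Ccl6 lies left of 0 in astrocytes and right of 0 in microglia.

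Whether the length of the peptide mattered was asked by comparing the fibrils directly. In astrocytes no member was called different between Aβ42 and Aβ40 (0 of 8, against 0.0855% of all genes; 3 members at an unadjusted p under 0.05 by edgeR, 0 called by DESeq2). The differences were nonetheless mostly on the Aβ42 side. Those of Ccl2, Ccl3, Ccl4, Ccl5, Ccl7 and Ccl20 ran from 0.26 to 0.45 on the log2 scale with SEs of 0.15 to 0.20, and that of Ccl19 was -0.31 ± 0.18. The difference farthest from 0 was that of Ccl6, 0.88 ± 0.22 (adjusted p = 0.218, edgeR), and its 95% interval ran from 0.45 to 1.31. For the other 7 genes such an interval left room for differences of up to 0.80 in size.

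In microglia 2 of 8 members were called different (20.3% of all genes). Ccl5 was higher with Aβ42 by 1.12 ± 0.28 on the log2 scale (adjusted p = 0.0257, edgeR) and Ccl22 was higher with Aβ40, the Aβ42 minus Aβ40 value being -1.36 ± 0.16 (adjusted p = 0.00284). The Ccl22 libraries of the 2 fibrils did not overlap, whereas the Ccl5 libraries did through Aβ42 replicate 1. Without that library 5 members were called: Ccl5 (1.37 ± 0.12), Ccl22 (-1.41 ± 0.12), Ccl3 (-0.80 ± 0.14), Ccl2 (-0.58 ± 0.15) and Ccl4 (0.60 ± 0.23; adjusted p = 0.0401, edgeR). In that fit 53.8% of all genes were called, so a count of 5 of 8 is near the background. In that fit the neighbours Ccl3 and Ccl4 differed in opposite directions between the 2 groups. The remaining 2 Aβ42 libraries held 22274367 and 17687416 reads on genes and the Aβ40 libraries at most 4425805. Fibril and depth can thus not be told apart there. Leaving out any other library of the 2 fibril groups left 1 call, Ccl22, with 0.905% to 1.38% of all genes called, and Ccl5 then had an adjusted p of 0.0777 to 0.125 (edgeR). Fitting those groups alone also left Ccl22 alone (Ccl5 adjusted p = 0.0779). Ccl6, Ccl7 and Ccl20 differed by -0.11 ± 0.15, 0.12 ± 0.13 and 0.15 ± 0.12, and the ends of their 95% intervals lay between -0.40 and 0.38.

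**Figure D3:**
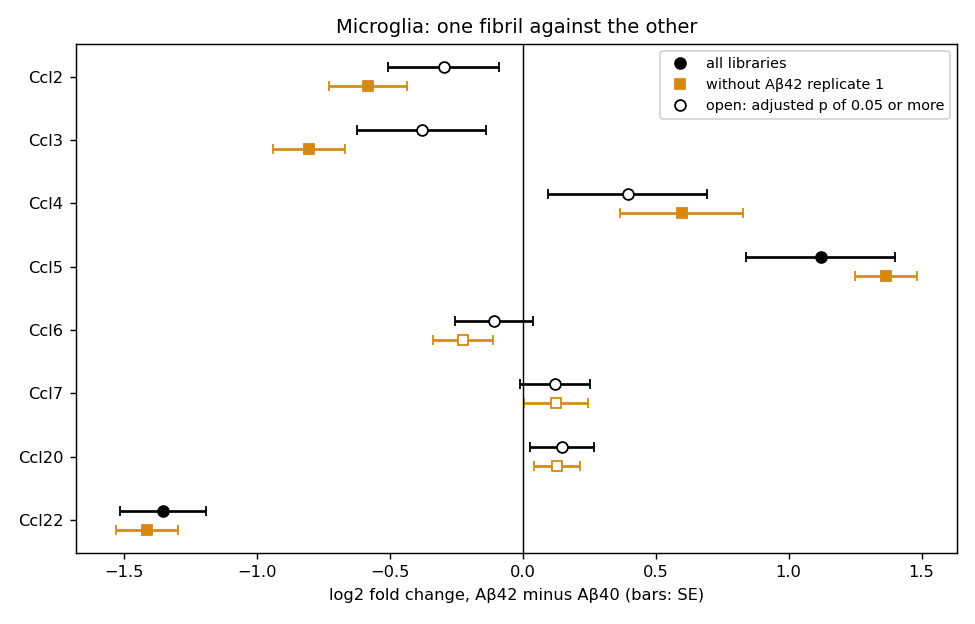
Difference between Aβ42 and Aβ40 fibrils in microglia for the 8 chemokines tested (log2 fold change, bars are SE), with all libraries and without Aβ42 replicate 1; filled points have an adjusted p under 0.05. Ccl22 lies near -1.4 in both, while Ccl2, Ccl3 and Ccl4 are called only without that library.

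How the 2 cultures compare was tested in 1 fit of all 18 libraries, with levels in CPM scaled over all of them. Before treatment, 5 of the 7 members compared were higher in microglia and 0 lower, against 34.2% of 11581 genes higher and 34.5% lower. Ccl3 was 135-fold higher (log2 difference 7.07 ± 0.33), Ccl4 71.0-fold (6.15 ± 0.44), Ccl6 6.81-fold, Ccl7 2.66-fold and Ccl2 2.03-fold (adjusted p from edgeR at most 1.77e-04). Ccl5 leaned to astrocytes without passing the test (microglia minus astrocyte -1.57 ± 0.70, adjusted p = 0.0528). Ccl20 differed by 0.98 ± 0.50 (adjusted p = 0.0895, edgeR). Without astrocyte control replicate 3 Ccl5 was called (-2.19, adjusted p = 0.0149), as was Ccl20 without astrocyte control replicate 2 (1.62) or microglia control replicate 3 (1.29). Ccl19 and Ccl22 were at or under 3 counts on average in both and are given no fold.

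With fibrils the members split between the cultures. All 9 members in the fit differed between astrocytes and microglia under the same fibril, beside 63.9% of all genes with Aβ42 and 69.0% with Aβ40. Ccl19 and Ccl22 passed the filter of this fit only through the culture where they are high. Their differences were set by that and add no support to the count. Ccl5 was 7.42-fold higher in astrocytes with Aβ42 and 13.1-fold with Aβ40, and Ccl20 1.71-fold and 1.48-fold (adjusted p from edgeR at most 0.00881). Ccl19 was higher in astrocytes with each fibril, 7.28-fold with Aβ42, where the microglia libraries held 2, 31 and 12 reads. With Aβ40 the microglia libraries held 4, 1 and 3 reads on Ccl19, and no fold is given. Ccl2 was higher in microglia, 3.09-fold with Aβ42 and 4.74-fold with Aβ40, and Ccl7 2.90-fold and 3.41-fold. Ccl3 was higher in microglia by 51.0-fold and 79.4-fold, Ccl4 by 60.8-fold and 62.7-fold, Ccl6 by 67.4-fold and 133-fold, and Ccl22 by 59.3-fold and 238-fold. The Ccl22 folds are rough, since each treated astrocyte library held 3 to 12 reads on it. Ranked over the 6 groups, Ccl5, Ccl19 and Ccl20 thus led in astrocytes with either fibril, and the other members in microglia with either fibril. At the top of each order the 2 fibril groups of the leading culture did not differ past the test, except for Ccl22 (adjusted p = 0.00115, edgeR), and the third group in the order of Ccl20, microglia with Aβ42, did not differ from astrocytes with Aβ40 past the test (adjusted p = 0.0527).

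The responses themselves differed between cultures for 4 of 8 members with Aβ42 and 4 of 8 with Aβ40, beside 37.3% and 32.5% of all genes. With 8 members, neither count stands far from the background. The microglia minus astrocyte difference of the log2 fold change was largest for Ccl22, at 5.81 ± 1.12 and 7.81 ± 1.21, and for Ccl6, at 3.31 ± 0.25 and 4.29 ± 0.25 (Aβ42 and Aβ40). Ccl20 rose more in astrocytes, with differences of -1.76 ± 0.53 and -1.54 ± 0.53. Ccl3 rose more in astrocytes with Aβ42 (-1.40 ± 0.39, adjusted p = 0.00870, edgeR), and its value with Aβ40 was -0.76 ± 0.39 (adjusted p = 0.155). Ccl2 rose more in microglia with Aβ40 (1.23 ± 0.28, adjusted p = 0.00211, edgeR), and its value with Aβ42 was 0.61 ± 0.28 (adjusted p = 0.0937). Without astrocyte control replicate 3, which held all 5 untreated astrocyte reads on Ccl22, only 2 members were called with each fibril (35.7% and 35.0% of all genes), as Ccl22 (1.79 with Aβ42 and 3.8 with Aβ40) and Ccl20 (-1.05 and -0.83) were lost. Ccl20 was also lost without microglia control replicate 1 (-1.3 and -1.09), and with Aβ40 without astrocyte control replicate 1 (-1.45) or microglia control replicate 2 (-1.56). Ccl2 gained a call with Aβ42 without microglia control replicate 1 (0.78) or Aβ42 replicate 2 (0.77).

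The levels in the astrocyte cultures were set beside those of their microglia markers, all in CPM over the 18 libraries. The 12 markers summed to 4.68%, 5.15% and 3.86% of their level in microglia cultures (untreated, Aβ42 and Aβ40), and the median of the single markers was 5.23%, 2.11% and 1.28%. With fibrils, Cx3cr1, a receptor that defines microglia, held at most 1 read per treated astrocyte library. Cx3cr1 was also down to 0.336 and 0.263 CPM in treated microglia. Ccl4 stood at 1.66%, 1.64% and 1.59% of its microglia level in astrocyte cultures, and Ccl3 at 0.762%, 1.96% and 1.26%. Ccl6 and Ccl22 were at 1.46% and 1.55% with Aβ42 and at 0.756% and 0.407% with Aβ40. With Aβ42 these 4 lay below the median marker, as they did with Aβ40 except for Ccl4, while untreated Ccl6 was at 15.0%. Ccl2 was at 21.1% to 49.7%, Ccl7 at 29.4% to 38.0%, and Ccl5 and Ccl20 above 100% with each fibril. The share of this RNA that came from microglia was not tested.

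**Figure D4:**
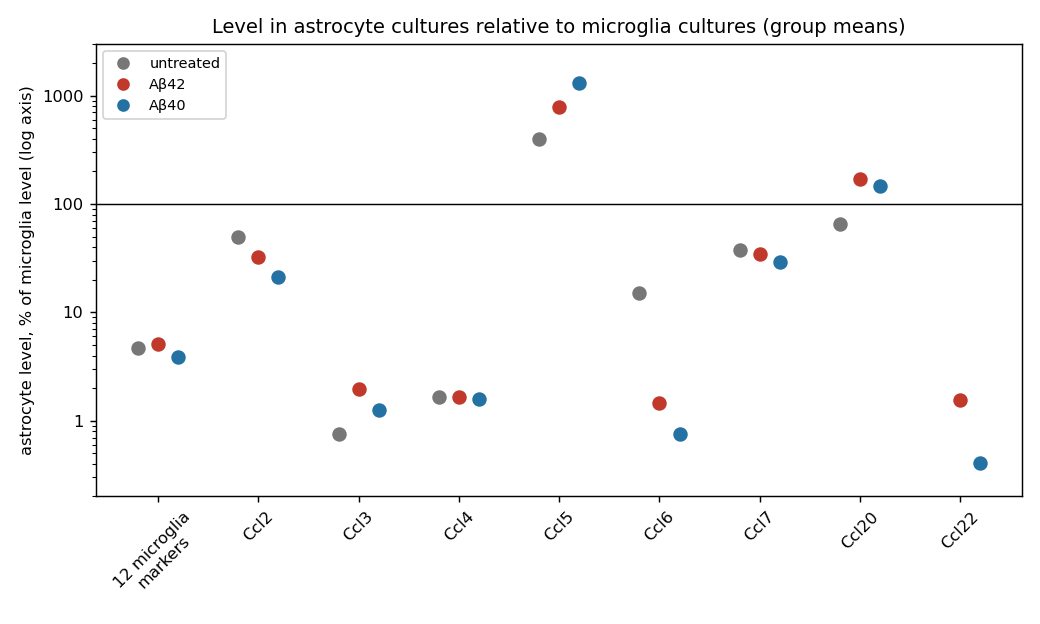
Group mean in astrocyte cultures as a percentage of the group mean in microglia cultures (log axis) for 12 summed microglia markers and 8 chemokines; Ccl17, Ccl19 and untreated Ccl22 are left out for want of reads. With fibrils Ccl3, Ccl4, Ccl6 and Ccl22 lie between 0.407% and 1.96%, and Ccl5 and Ccl20 lie above 100%.

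As a share of all reads on genes, the 10 members went from 0.0112% to 0.0159% in untreated astrocytes to 0.238% to 0.283% with Aβ42 and 0.185% to 0.234% with Aβ40. In microglia they went from 0.0632% to 0.0809% to 0.756% to 1.14% with Aβ42 and 0.994% to 1.20% with Aβ40. Within the family, treatment spread the astrocyte reads over more members: Ccl2 fell to 37.8% to 40.5% of them as Ccl5 rose from 0.904% to 2.02% before treatment to 12.8% to 16.2% after it. Ccl3 still led in every microglia library. Shares of reads also depend on transcript length, so they do not rank the members by molecules.

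**Figure D5:**
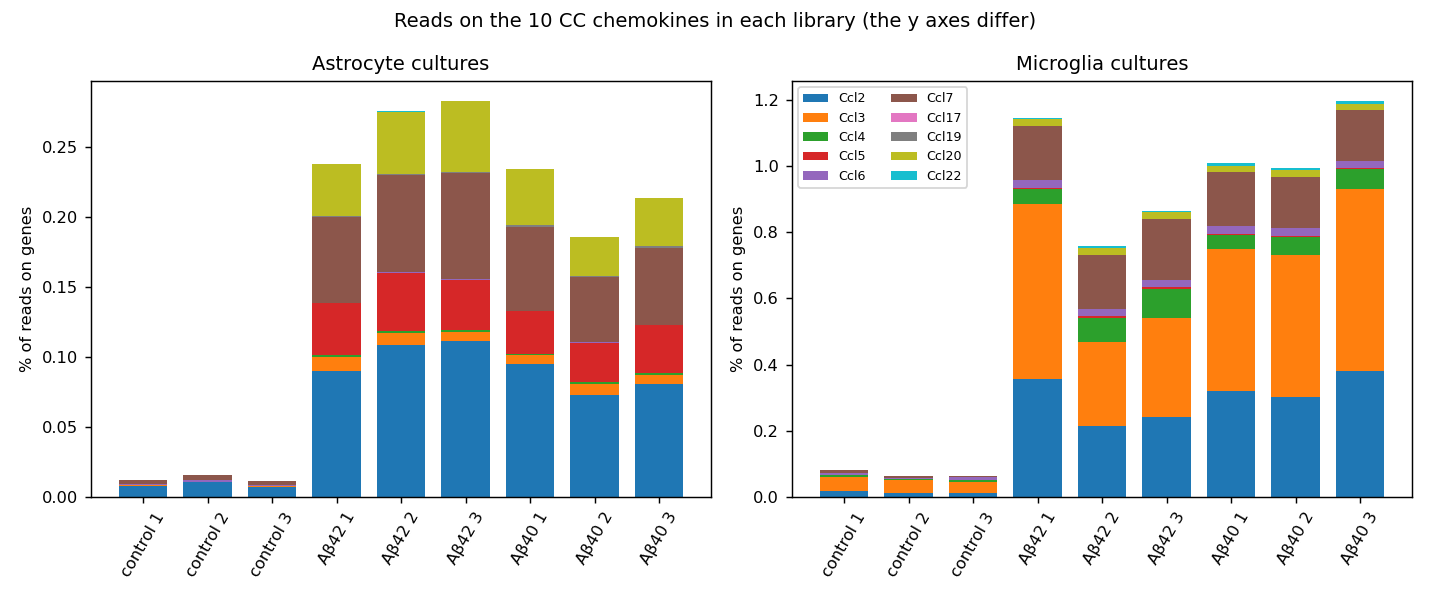
Reads on each of the 10 CC chemokines as a percentage of all reads on genes, stacked for each library, in astrocyte (left) and microglia (right) cultures on y axes that differ. Ccl2 is the largest part of every astrocyte bar and Ccl3 of every microglia bar, and Ccl5 and Ccl20 are broad only in treated astrocytes.

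The likeness of the members over the 18 libraries is described here by Pearson's r of log2 CPM, which reflects the 6 groups and the depth shared by all genes of a library. Ccl2 and Ccl7 correlated at 0.990, Ccl3 and Ccl4 at 0.980, and Ccl5 and Ccl19 at 0.955, while Ccl5 and Ccl6 stood at -0.38. The order did not follow the culture in which a member led: Ccl20 correlated at 0.923 with Ccl7, 0.914 with Ccl5 and 0.886 with Ccl2, while Ccl2 correlated at 0.790 with Ccl3 and 0.443 with Ccl6. The genes outside the family most like each member among 11581 were Cxcl1, a neutrophil attractant, for Ccl2 (0.996) and Ccl7 (0.992), Mmp9, a matrix protease, and the cytokine gene Tnf for Ccl3 (0.992 and 0.988), and Ebi3, a cytokine subunit, and Cd40 for Ccl4 (0.992 and 0.990). Irak3 came after Cxcl1 for Ccl2 (0.992) and Cdkn2b for Ccl7 (0.992). For Ccl5 they were Has2 and Slc39a14 (0.982 and 0.980), for Ccl6 Ppfibp2 and Mknk1 (0.993 and 0.991), and for Ccl19 Cyp1b1 and RT1-Db1 (0.973 and 0.971). For Ccl20 they were Cxcl6, another neutrophil attractant, and Birc3, a target of NF-κB (0.995 and 0.992), and for Ccl22 Il12b, a subunit of interleukin-12, and Plk2 (0.986 and 0.981).

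Of 10 further CC ligands, 3 passed the filter in each culture. In astrocytes 2 of them rose with each fibril, and in microglia 2 rose with Aβ42 and 3 with Aβ40. The shares of all genes called higher were 16.5% and 14.9% in astrocytes and 27.1% and 19.6% in microglia (Aβ42 and Aβ40). Ccl12, a rodent ligand of Ccr2, rose in microglia from 65.2 to 315 CPM with Aβ42 and 354 CPM with Aβ40 (log2 fold changes 2.27 ± 0.18 and 2.43 ± 0.18), and in astrocytes from 1.46 to 6.01 and 3.79 CPM (2.19 ± 0.48 and 1.49 ± 0.50). Ccl9, a rodent ligand of Ccr1, rose in microglia from 61.0 to 345 CPM with each fibril (2.49 ± 0.13 and 2.5 ± 0.13) and in astrocytes from 1.35 to 2.92 and 2.96 CPM. Ccl24 was called in microglia with Aβ40 (1.04 ± 0.39, adjusted p = 0.0486, edgeR), with 4 to 22 reads in the untreated libraries and 14 to 18 in the Aβ40 libraries.

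Few of the receptors were read. Of 14 CC and atypical receptors, Ccr2, Ccr8, Ackr1 and Ackr4 were not analysed here, and of the other 10, 2 passed the filter in astrocytes and 3 in microglia. Ccr1, the receptor of Ccl3, Ccl5, Ccl6 and Ccl9, rose in microglia from 21.1 CPM to 110 CPM with Aβ42 and 94.3 CPM with Aβ40 (log2 fold changes 2.39 ± 0.19 and 2.18 ± 0.19). Ccrl2, which binds chemerin without signalling, rose in both cultures, from 11.3 to 72.0 and 62.9 CPM in microglia and from 0.663 to 2.96 and 2.82 CPM in astrocytes. Ccr6 and Ccr4, the receptors of Ccl20 and of Ccl17 and Ccl22, had at most 1 read in any library, and Ccr7, the receptor of Ccl19, at most 15.

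Of 9 cytokines that act on these genes, 3 of 4 tested rose in astrocytes with each fibril (16.5% and 14.9% of all genes, Aβ42 and Aβ40) and 4 of 5 in microglia (27.1% and 19.6%). The remaining one, Tgfb1, a mainly inhibitory cytokine, fell in astrocytes with both fibrils (-1.25 ± 0.13 and -1.59 ± 0.13) and in microglia with Aβ40 (-0.62 ± 0.16), its value with Aβ42 there being -0.24 ± 0.16. Il1b rose from 0.7496 to 105 and 81.8 CPM in astrocytes and from 225 to 4343 and 4603 CPM in microglia (Aβ42 and Aβ40), and Il1a from 0.818 to 63.6 and 44.8 CPM and from 43.3 to 3347 and 4326 CPM. Tnf rose from 1.12 to 17.4 and 10.7 CPM in astrocytes and from 108 to 1036.5 and 1266 CPM in microglia, and Il10, an inhibitory cytokine, from 1.55 to 5.70 and 5.42 CPM in microglia. Of 17 transcription factors that act on chemokine genes, 9 of 14 tested rose in astrocytes with each fibril and 1 fell. Of all genes there, 16.5% and 14.9% were called higher and 20.4% and 18.4% lower (Aβ42 and Aβ40). In microglia 7 of 15 rose and 4 fell with Aβ42, and 6 rose and 5 fell with Aβ40, beside 27.1% and 19.6% of all genes called higher. The share of all genes called lower in microglia is not reported here, so the falls cannot be judged against it. In the test of the difference in response, 9 of 15 rose less or fell more in microglia than in astrocytes with each fibril, and 3 (Aβ42) and 1 (Aβ40) the reverse. Of all genes, 37.3% (Aβ42) and 32.5% (Aβ40) were called in that test in either direction. Irf7, which drives interferon genes, rose in astrocytes by 5.44 ± 0.14 and 5.26 ± 0.13 on the log2 scale and in microglia by 2.09 ± 0.27 and 1.96 ± 0.27. Cebpb, an acute-phase regulator, rose in microglia by 3.77 ± 0.34 with Aβ42 and 2.09 ± 0.34 with Aβ40. Irf8 and Irf4, factors of the myeloid lineage, fell in microglia, Irf8 from 180 to 9.78 and 13.5 CPM and Irf4 from 30.8 to 1.79 and 1.46 CPM.

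Of 8 feedback inhibitors and RNA decay factors, 6 of 7 tested rose in astrocytes and 7 of 7 in microglia with each fibril. The shares of all genes called higher were 16.5% and 14.9% in astrocytes and 27.1% and 19.6% in microglia (Aβ42 and Aβ40). Nfkbiz, a nuclear regulator of NF-κB targets, rose in astrocytes from 10.2 to 184 and 158 CPM and in microglia from 152 to 472 and 494 CPM (Aβ42 and Aβ40). Zc3h12a, an RNase that degrades cytokine transcripts, rose by 4.04 ± 0.29 and 4.0 ± 0.29 on the log2 scale in astrocytes and by 3.22 ± 0.13 and 3.14 ± 0.13 in microglia. Nfkbie and Nfkbia, inhibitors of NF-κB, rose in astrocytes by 3.07 ± 0.23 and 2.65 ± 0.11 with Aβ42. In microglia with Aβ42 they rose by 0.56 ± 0.12 and 2.42 ± 0.13.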

How the data were processed

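RNA-seq was read from 18 count tables, 1 per library, in 6 groups of 3 given by the labels. The deposited values are whole-number counts per gene symbol, which the authors made from stranded poly(A) libraries read for 150 cycles, with STAR, Salmon and rat genome rn5 named in their notes (versions not given in the sources used here). Reads in no gene or in several were left out of library sizes and made up 21.7% to 34.2% of each table. Counting strand is not stated.

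Within each cell type, 9 libraries were fitted together with edgeR 4.0.16 in R 4.3.3 (TMM, filterByExpr, glmQLFTest, Benjamini-Hochberg over all genes tested), and a call is an adjusted p under 0.05. The SE is the log2 fold change divided by the square root of F. Cell types were compared in a fit of all 18 libraries over the 16704 symbols in both tables. Log2 CPM for correlations used a prior count of 2. Fits were tested on simulated data. A level of 3 counts per library served as the detection limit, and limits and the 95% intervals of the Ccl22 count ratios cover counting error only. The 95% intervals of differences between fibrils were built from the SE with a normal quantile, so they include the spread between libraries. They are narrower than the test implies and can leave out 0 where the test is not passed. Promoter letters were searched with Python 3.11. Alternatives were other scalings, no filter, DESeq2 1.42.0, a replicate block, fits of 2 groups and leaving out each replicate.

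The members and lists were chosen with earlier results of these data known. All 10 members are named in each comparison. From each further list up to 4 genes with the largest called change were named, with every CC receptor above the filter except 1 that is not reported here, and for each member the 2 most correlated genes. Tgfb1, Batf3, Zbtb46 and Cx3cr1 were named after their values were seen.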

Additional observations from a re-analysis of the deposited data

Results flagged for a closer look

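The response of 4 of 8 chemokines with each fibril differed between microglia and astrocytes in the test of the difference itself, beside 37.3% of all genes with Aβ42 and 32.5% with Aβ40 (edgeR, all 18 libraries, microglia minus astrocyte difference of the log2 fold change). With 8 members tested, these counts do not stand far from the background. With Aβ42 the difference was 5.81 for Ccl22, 3.31 for Ccl6, -1.40 for Ccl3 and -1.76 for Ccl20. With Aβ40 it was 7.81 for Ccl22, 4.29 for Ccl6, 1.23 for Ccl2 and -1.54 for Ccl20. The Ccl22 values rest on 5 reads in untreated astrocytes, all in replicate 3, and 4 reads in untreated microglia, and without that replicate they were 1.79 and 3.8 and no longer called. The treated levels of Ccl22 differed 59.3-fold and 238-fold between the cultures, with 3 to 12 reads in each treated astrocyte library. It passed the filter only through microglia. The call of Ccl20 was lost with each fibril without astrocyte control replicate 3 (-1.05 and -0.83) or microglia control replicate 1 (-1.3 and -1.09), and with Aβ40 also without astrocyte control replicate 1, without microglia control replicate 2 and with a replicate block. Microglia markers fell in the astrocyte cultures with each fibril (10 and 11 of 12), beside the fall of Ccl6 there, and as often in the microglia cultures, where Ccl6 rose. Their part in either change was not tested.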

How the results depend on the processing

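Against untreated controls, every member value kept its direction and its side of the threshold under all alternatives in both cultures (96 of 96 in each of the 4 comparisons), as did those of astrocytes between fibrils. Leaving out 1 library at a time gave 8 calls in each of the 4 comparisons with control. It gave 0 between fibrils in astrocytes and 5 to 6 between untreated cultures. For the difference in response it gave 2 to 5 with Aβ42 and 2 to 4 with Aβ40 (2 without astrocyte control replicate 3, 4 with all libraries). Between fibrils in microglia the count ran from 1 to 5: 5 without Aβ42 replicate 1 (53.8% of all genes called) and 1 without any other library of the 2 fibril groups (0.905% to 1.38%), and it was 1 in the fit of those groups alone. The differences in response of Ccl4 and Ccl7, near 0 with all libraries (Ccl4 -0.22 with Aβ42 and -0.18 with Aβ40, Ccl7 0.12 with Aβ42), changed sign among these: Ccl4 ran from -0.54 to 0.30 with Aβ42 and from -0.50 to 0.34 with Aβ40 (above 0 without astrocyte control replicate 3 or microglia control replicate 1, at 0.13 and 0.17 without the latter), and Ccl7 from -0.042 (without astrocyte control replicate 2) to 0.31. The causes were not tested. Without the filter Ccl17 and Ccl19 were tested in microglia too, and 10 of 10 were called with each fibril.

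With the replicate number as a block, the counts were 8 in each comparison with control, 0 and 2 between fibrils (astrocytes, microglia), 6 between untreated cultures, and 4 (Aβ42) and 3 (Aβ40) for the difference in response. Ccl5 was then called between untreated cultures (-2.03, adjusted p = 0.0213) and Ccl20 lost its difference in response with Aβ40 (adjusted p = 0.0658, edgeR). Ccl5 was also called between untreated cultures by DESeq2 (-1.73) and under other scalings. The numbers are shared by name only: deviations of same-numbered libraries correlated at over 0.1 in 2 of 9 astrocyte pairs (-0.53 to 0.36) and 1 of 9 microglia pairs (-0.19 to 0.22). Depth limits Ccl17, Ccl19 and Ccl22 most, and Aβ42 replicate 1 and the Aβ40 libraries of microglia hold at most 4425805 reads on genes each.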
